A study of Sparus aurata with 9 samples.

Results

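The miRNAs described here, miR-142, miR-144, miR-223 and miR-451, are those that vertebrate blood cells are known for, and they were read out in cultured muscle cells of gilthead sea bream (Sparus aurata). Members were all table entries whose miRNA number, after the species prefix, is exactly that of miR-142, miR-144, miR-223 or miR-451. This gave 7 of 862 entries, which hold 6 distinct sequences of 830, because miR-142-3p is listed under 2 names with equal values. Small RNA was sequenced from primary cells of fast-twitch skeletal muscle that had grown to day 8, in 3 groups of 3 libraries. AA cells spent 12 h in nutrient restriction medium and 24 h with amino acids, IGF1 cells spent 12 h in that medium and 24 h with insulin-like growth factor 1, and control cells (CTR, labelled C) stayed in restriction medium for 36 h. By the study's methods the AA medium was DMEM, and IGF1 cells received the restriction medium plus the hormone and its carrier, bovine serum albumin, so that the groups also differ in these components. The cells came from epaxial muscle of fingerlings that was minced, digested with collagenase and trypsin and filtered, and they grew with fetal bovine serum before the restriction. The study describes 3 independent cultures, and the labels do not say which libraries share a culture, so that each p-value rests on the scatter among libraries, which may be technical.

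A miRNA is a short RNA that guides repression of messenger RNAs, chiefly through its seed, bases 2 to 8. Its hairpin precursor can give a mature strand from either arm, called 5p and 3p. In mammals and zebrafish miR-142 is made in nearly all blood lineages and miR-223 mainly in granulocytes and other myeloid cells, where it restrains inflammation. miR-144 and miR-451 share a precursor transcript in red cells, which in fish keep their nuclei, and miR-451 is unusual in being cut by Argonaute 2 and not by Dicer. In a muscle culture these miRNAs are used as signs of blood cells, while miR-1, miR-133 and miR-206 are those of muscle.

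The 6 sequences are shown as deposited, 5′ to 3′ and as DNA letters, with the seed in capitals, since the seed is what would set their targets apart.
miR-142-5p: cATAAAGTagaaagcactacta
miR-142-3p: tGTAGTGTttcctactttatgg
miR-223: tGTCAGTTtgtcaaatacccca
miR-451: aAACCGTTaccattactgagttt
miR-144-5p: gGATATCAtcttatactgtaagt
miR-144-3p: tACAGTATagatgatgtac

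No seed was shared among the 6, and none occurred in any other of the 830 sequences, so that none of them stands for a wider seed family in this table. miR-142-5p and miR-142-3p hold complementary runs of up to 10 bases and the arms of miR-144 runs of up to 9, as arms of a hairpin do. The sequence of miR-144-3p, at 19 bases, is the shortest, and the others have 22 or 23, where the median of all sequences is 22. GC content was between 30.4% and 40.9%, below the median of 45.5% over all sequences. The names come from zebrafish (dre) and Nile tilapia (oni) precursors in miRBase. The suffix R+1 in the names of miR-142-5p, miR-223 and miR-451 marks 1 base more at the 3′ end than the miRBase entry, and 1 name of miR-142-3p carries R-1, for 1 base less. Bovine precursors were not analysed here.

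Inferred depth was between 9766620 and 11214788 reads in AA, between 7241678 and 9534840 in IGF1 and between 7045311 and 8010694 in CTR, so that AA libraries were the deepest. In the values taken back to reads, 1 or 2 whole reads occurred 2 times in the 9 libraries, 3 or 4 whole reads 121 times and 5 or 6 whole reads 488 times. An entry listed at 0 may therefore have had a few reads. In bulk RNA, fewer cells of a type and less RNA per cell cannot be told apart.

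The blood cell miRNAs were minor components of the culture, and only miR-144 was close to undetected. Their 6 sequences summed to between 190 and 407 RPM (normalized reads in every 1000000 of a library's total), with a mean of 262 ± 69.9 in AA, 291 ± 101 in IGF1 and 258 ± 99.2 in CTR (SD, n = 3 each). The skeletal muscle list of miR-1, miR-133, miR-206 and miR-499 took between 59096 and 96625 RPM, and miR-126 of endothelium between 10507 and 12637. The red cell list of miR-144 and miR-451 took between 24.2 and 44.6 RPM, of which miR-144 was near 0, and the white cell list of miR-142 and miR-223 between 165 and 373. Since miR-142 is made in nearly all blood lineages, the latter list does not mark white cells alone. miR-155, which here stands alone for the lymphocyte list, lay above the white cell list in every library, between 426 and 664 RPM. It is raised in macrophages as well as in lymphocytes, so that it does not mark lymphocytes alone. The list of fibroblasts and smooth muscle took between 36500 and 45471. Below the white cell list lay those of tissues outside muscle and blood, with between 48.1 and 93.4 RPM for the epithelial miRNAs, between 34.2 and 70.7 for miR-122 of liver and between 9.90 and 18.6 for the neuronal miRNAs. The red cell list did not stand above these, and lay below the epithelial list in every library. Its means of 28.8, 30.3 and 34.2 RPM in AA, IGF1 and CTR were also below those of miR-122, at 38.0, 40.5 and 65.3.

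**Figure D1:**
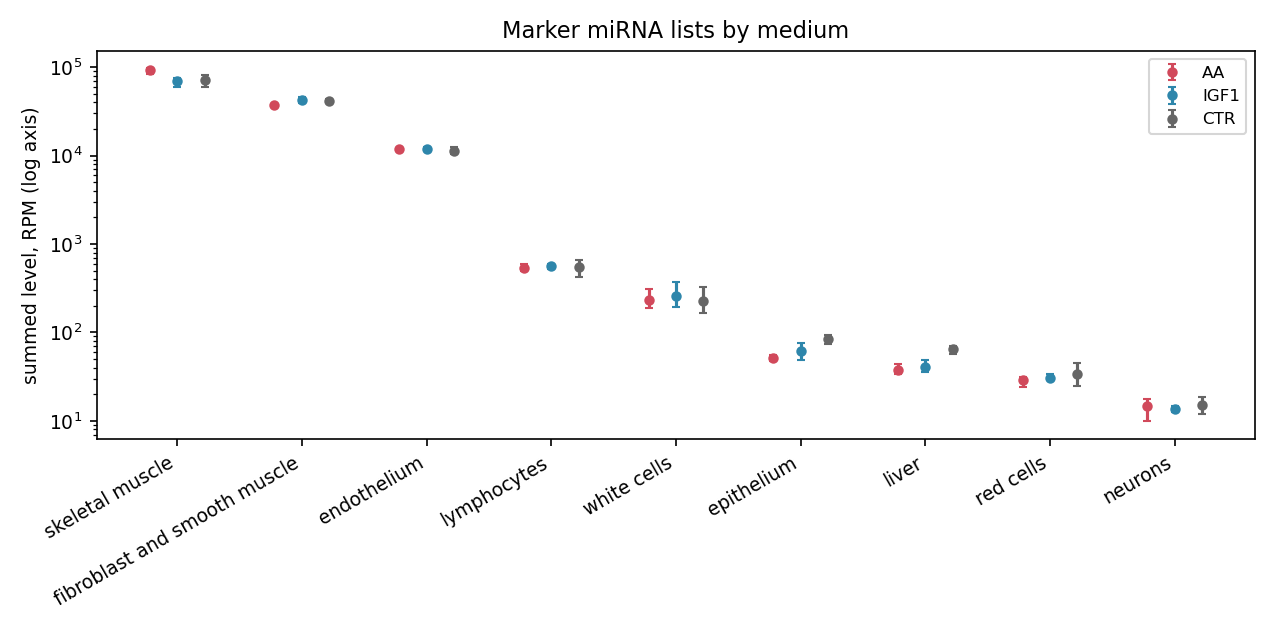
Summed level of each marker list (log axis, RPM) in AA, IGF1 and CTR libraries; points are means of 3 libraries and bars run from the lowest to the highest library. The white cell list, miR-142 and miR-223, lies between 165 and 373 RPM and the red cell list between 24.2 and 44.6, against at least 59096 for skeletal muscle. miR-142 does not mark white cells alone.

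miR-223, the myeloid miRNA, was the most abundant of the 6. It had 964, 772 and 1019 normalized reads in AA replicates 1 to 3, 1333, 920 and 954 in IGF1 and 1285, 909 and 920 in CTR. It ranked 164 of 830 sequences, and its highest library was 1.73 times its lowest. In IGF1 and CTR the library numbered 1 stood above the others, while in AA it did not.

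miR-142-5p, the 5p arm of the general blood cell miRNA, had 1191, 604 and 507 normalized reads in AA, 1126, 566 and 525 in IGF1 and 798, 394 and 522 in CTR. In each group the library numbered 1 was the highest, and the other 6 libraries lay close together, between 394 and 604. Its 3p arm had 534, 276 and 258 normalized reads in AA, 662, 253 and 339 in IGF1 and 705, 115 and 154 in CTR. Again the library numbered 1 was the highest of each group, and CTR held both the highest and the lowest of the 9 values, 6.11-fold apart.

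miR-451, the red cell miRNA, had 266, 200 and 277 normalized reads in AA, 278, 257 and 240 in IGF1 and 363, 216 and 294 in CTR. These values were the most even of the 4 abundant sequences together with those of miR-223, with coefficients of variation of 17.9% and 18.2% over the 9 libraries, against 41.2% for miR-142-5p and 58.9% for miR-142-3p. The SD within groups on the log2 scale was 0.27 for miR-451 and 0.27 for miR-223, below the median of 0.34 over the 594 entries tested. It was 0.59 for miR-142-5p and 0.96 for miR-142-3p, and 89.2% of the entries tested had a smaller one than miR-142-3p.

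miR-144, known to share a precursor transcript with miR-451, was listed at 0 in most libraries. Its 5p arm had 5 and 12 reads in AA replicates 1 and 2, 5 reads in IGF1 replicate 1 and 5 reads in CTR replicate 1, and was listed at 0 in the other 5 libraries. Its 3p arm had 6 reads in AA replicate 1 and 8 reads in CTR replicate 1, and was listed at 0 in the other 7. Of the 6 values above 0, 5 were in libraries numbered 1, and none exceeded 12 reads. miR-451 was above both arms in all 9 libraries.

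**Figure D2:**
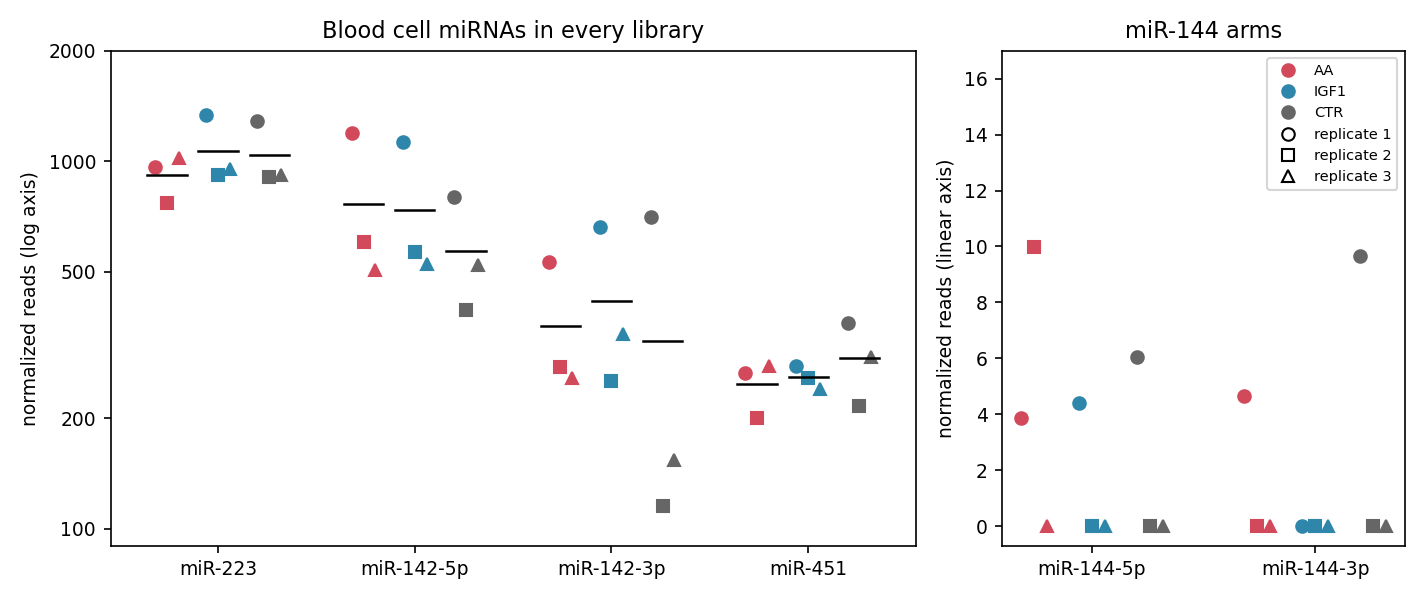
Normalized reads of the 4 abundant sequences (left, log axis) and the 2 arms of miR-144 (right, linear axis) in AA, IGF1 and CTR libraries; symbols mark the replicate number and black lines the mean of 3 libraries. For both arms of miR-142 the circles, libraries numbered 1, are the highest of each group, and the miR-144 arms are at 0 in 5 and 7 of 9 libraries.

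With each distinct sequence counted once, the order of levels within libraries was nearly fixed. miR-223 was above miR-142-5p in 8 of 9 libraries, the exception being AA replicate 1, and above miR-142-3p and miR-451 in all 9. miR-142-5p was above miR-451 in all 9. miR-142-3p and miR-451 changed places, with miR-142-3p the higher in 5 of 9 libraries, so that their order did not hold beyond the spread. Whether the reads of miR-142-3p are split between its names was not tested. If they are, its level is understated here, and its order against the other members may differ. miR-142-5p also held values that were not whole when taken back to reads, such as 1283.5 in IGF1 replicate 1. Whether its reads are divided was not tested either, and its order against miR-223 may then differ too. Between different miRNAs, normalized reads also carry differences in how well each sequence enters a library, which were not measured.

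The comparisons between media asked whether amino acids or the growth factor went with a different level of these miRNAs. None of the 4 sequences that met the filter on low values passed in any comparison, and their groups overlapped in all 12 cases. Over all 594 entries tested, 2.36% passed in AA against CTR, 0% in IGF1 against CTR and 0.842% in AA against IGF1 (limma, Benjamini-Hochberg adjusted p under 0.05), with 16.5%, 10.3% and 8.75% at an unadjusted p under 0.05. In this model, which has no replicate term, none of the 12 member values had an unadjusted p under 0.05, the smallest being 0.28. Groups did not overlap in 22.6%, 13.3% and 15.3% of entries in these comparisons.

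For the myeloid miR-223 and the red cell miR-451 the intervals were narrow. miR-223 averaged 918 ± 130 normalized reads in AA, 1069 ± 229 in IGF1 and 1038 ± 213.8 in CTR (SD, n = 3 each). The log2 fold change was -0.17 for AA against CTR (95% interval -0.64 to 0.31, limma adjusted p = 0.702), 0.04 for IGF1 against CTR (-0.43 to 0.52, adjusted p = 0.938) and -0.21 for AA against IGF1 (-0.68 to 0.27, adjusted p = 0.971). miR-451 averaged 248 ± 41.7 in AA, 259 ± 19.1 in IGF1 and 291 ± 73.9 in CTR. Its log2 fold change was -0.21 for AA against CTR (95% interval -0.71 to 0.28, limma adjusted p = 0.652), -0.14 for IGF1 against CTR (-0.63 to 0.35, adjusted p = 0.825) and -0.07 for AA against IGF1 (-0.57 to 0.42, adjusted p = 0.996). As ratios, the intervals of both miRNAs over the 3 comparisons lay between 0.612 and 1.43.

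For the miR-142 arms the intervals of this model were wide. miR-142-5p averaged 767 ± 370 in AA, 739 ± 336 in IGF1 and 571 ± 206.3 in CTR. Its log2 fold change was 0.38 for AA against CTR (95% interval -0.51 to 1.28, limma adjusted p = 0.653), 0.34 for IGF1 against CTR (-0.55 to 1.24, adjusted p = 0.743) and 0.04 for AA against IGF1 (-0.85 to 0.94, adjusted p = 0.996). miR-142-3p averaged 356 ± 154 in AA, 418 ± 216 in IGF1 and 325 ± 330 in CTR. Its log2 fold change was 0.53 for AA against CTR (95% interval -0.88 to 1.94, limma adjusted p = 0.702), 0.72 for IGF1 against CTR (-0.69 to 2.14, adjusted p = 0.668) and -0.19 for AA against IGF1 (-1.61 to 1.22, adjusted p = 0.996). Fold changes are on the scale of log2(normalized reads + 1). With the replicate number as a block, the SE of miR-142-3p was 0.29, against 0.63 without it, and its unadjusted p in IGF1 against CTR was 0.0309 (limma adjusted p = 0.238). This was the single member value with an unadjusted p under 0.05 in that model, where 22.7% of all entries had one in AA against CTR, 15.8% in IGF1 against CTR and 11.1% in AA against IGF1. For miR-142-5p in AA against CTR the block gave an SE of 0.17, against 0.40 without it, and an unadjusted p of 0.054 (limma adjusted p = 0.229). No member passed after adjustment.

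Single libraries weighed on these values. Without CTR replicate 1, miR-142-3p had log2 fold changes of 1.33 for AA against CTR (limma adjusted p = 0.0963) and 1.52 for IGF1 against CTR (adjusted p = 0.0965), and miR-142-5p of 0.65 and 0.61. Without CTR replicate 2, miR-142-3p had log2 fold changes of 0.03 for AA against CTR and 0.22 for IGF1 against CTR. Without AA replicate 1, miR-142-5p was at 0.02 in AA against CTR, and without IGF1 replicate 1 at -0.0071 in IGF1 against CTR. None passed.

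**Figure D3:**
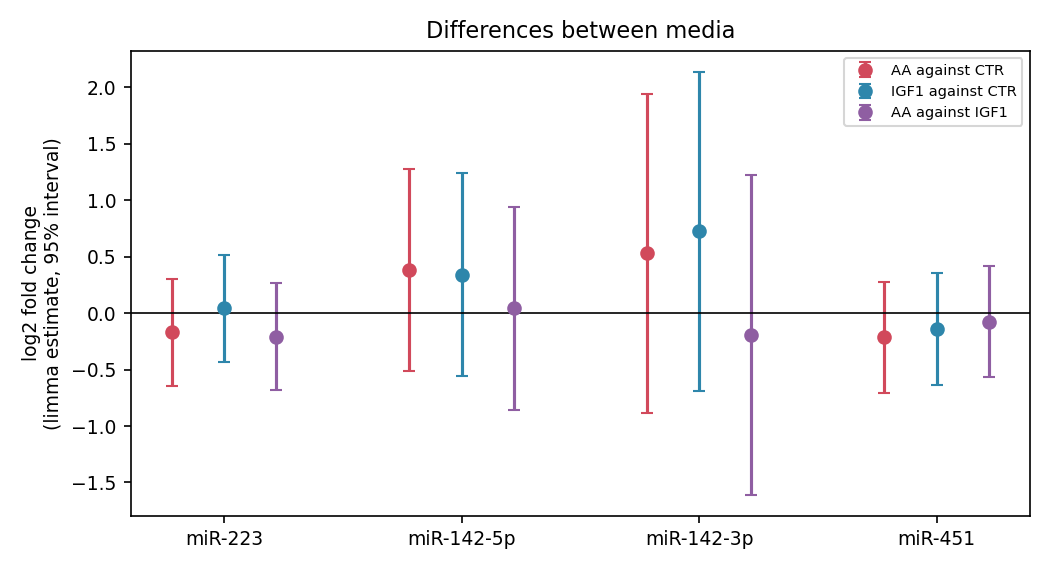
log2 fold change (limma estimate with no replicate block, points) with its 95% interval (bars) for 4 blood cell miRNAs in the 3 comparisons between media. All 12 intervals hold 0, and those of the miR-142 arms are the widest. With the replicate block, not shown here, miR-142-3p in IGF1 against CTR had an unadjusted limma p of 0.0309 (adjusted p = 0.238).

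The libraries with the same replicate number in the titles were then set side by side, a comparison chosen after the values were seen. Its p-values are therefore given as a description only. If the number marks a culture, the 3 libraries numbered 1 are not independent and stand for 1 culture against 2 others. Both arms of miR-142 were higher in the libraries numbered 1 than in those numbered 2 and 3, in all 3 groups. Over the 6 sequences, the summed level was 342, 407 and 372 RPM in AA, IGF1 and CTR replicate 1. In the other 6 libraries it was between 190 and 245. The miR-142 arms made up 58.2%, 52.5% and 47.5% of the sum in these libraries numbered 1, against 31.2% to 47.3% in the other 6. The share in CTR replicate 1, at 47.5%, was thus close to that in AA replicate 2, at 47.3%. miR-223 and miR-451 were not highest in AA replicate 1, so that the sum does not speak for each member. How many of all entries lie higher in every library numbered 1 than in the other 6 was not computed.

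In libraries numbered 1, miR-142-5p was 2.14 times the mean of the other libraries in AA, 2.07 times in IGF1 and 1.74 times in CTR. In limma with a term per group, its log2 difference between replicate 1 and replicates 2 and 3 was 0.99 (SE 0.15, adjusted p = 0.00518). miR-142-3p was 2.0 times the mean of the others in AA, 2.24 times in IGF1 and 5.24 times in CTR, with a log2 difference of 1.52 (SE 0.25, limma adjusted p = 0.00595). Without the CTR libraries, whose replicate 1 stood far apart, the log2 differences were 1.08 for miR-142-5p (adjusted p = 0.0158) and 1.09 for miR-142-3p (adjusted p = 0.0204).

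miR-223 had a log2 difference of 0.37 (SE 0.14, limma adjusted p = 0.143) and miR-451 of 0.29 (SE 0.16, adjusted p = 0.276), and neither passed. The difference between miR-142 and these miRNAs was not tested. Of all 594 entries, 6.4% passed as higher and 1.35% as lower in replicate 1, and 14.5% were highest in replicate 1 of every group, as 2 of the 4 member sequences were. Replicate 1 was the deepest library of AA and of IGF1 and the shallowest of CTR, and the part of depth was not tested. Since a number in a title need not mark a shared culture, what these libraries have in common was not tested. With no filter on low values the miR-144 arms had log2 differences of 1.93 (5p) and 1.97 (3p), neither past the threshold (limma adjusted p = 0.225 and 0.227). These rest on at most 12 reads in a library, set against values listed at 0. In AA the 5p arm was lower in replicate 1, at 3.86 normalized reads, than the mean of the others, at 4.99.

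**Figure D4:**
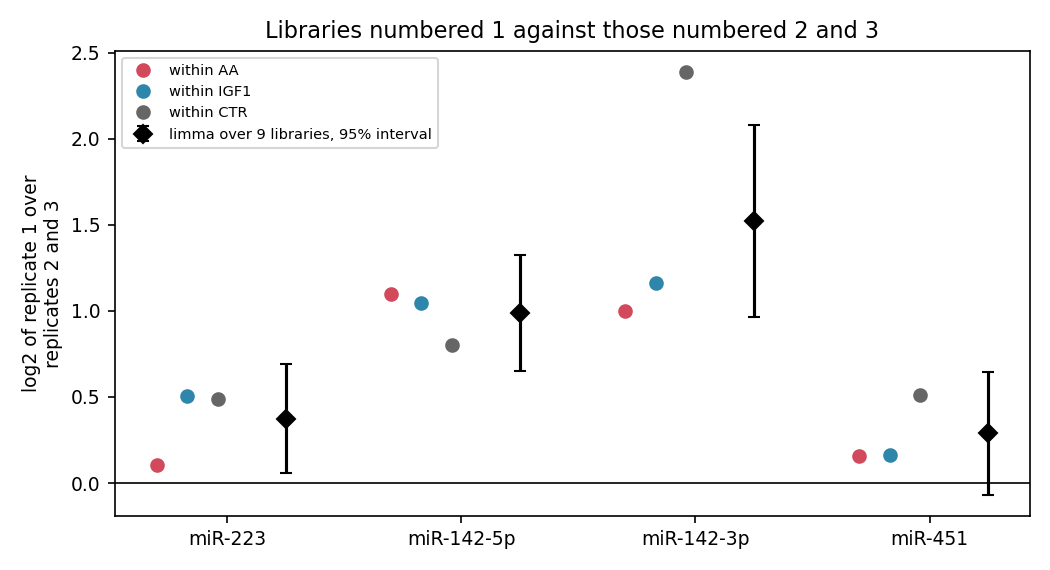
log2 ratio of the library numbered 1 to the mean of those numbered 2 and 3 within AA, IGF1 and CTR (circles), and the limma estimate over the 9 libraries with its 95% interval (diamonds), for 4 blood cell miRNAs. The intervals of both miR-142 arms lie above 0.6, and the circle of miR-142-3p in CTR stands at a 5.24-fold ratio. The interval of miR-223 lies above 0, from 0.06 to 0.69, and that of miR-451 holds 0.

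Across the 9 libraries the 4 abundant sequences were related to unequal degrees. On the log2 scale Pearson's r was 0.86 between the miR-142 arms and 0.76 between miR-223 and miR-451. Between a miR-142 arm and miR-223 or miR-451 it was between 0.39 and 0.69. In the 6 libraries not numbered 1, r was 0.75 between the miR-142 arms, 0.73 between miR-223 and miR-451 and between -0.38 and 0.06 for the other 4 combinations. With group means removed, over all 9 libraries, r was 0.85 between the miR-142 arms, 0.78 between miR-223 and miR-451 and between 0.59 and 0.82 for the other 4, the highest being miR-142-3p with miR-223, so that the 4 sequences did not then separate into these pairs. These values describe libraries that differ in depth, between and within groups, and may share cultures, so no p is given. The ratio of miR-142-5p to miR-451 was 4.48, 3.03 and 1.83 in AA, 4.05, 2.20 and 2.19 in IGF1 and 2.19, 1.83 and 1.78 in CTR, whereas that of miR-223 to miR-451 stayed between 3.14 and 4.79 in all 9.

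**Figure D5:**
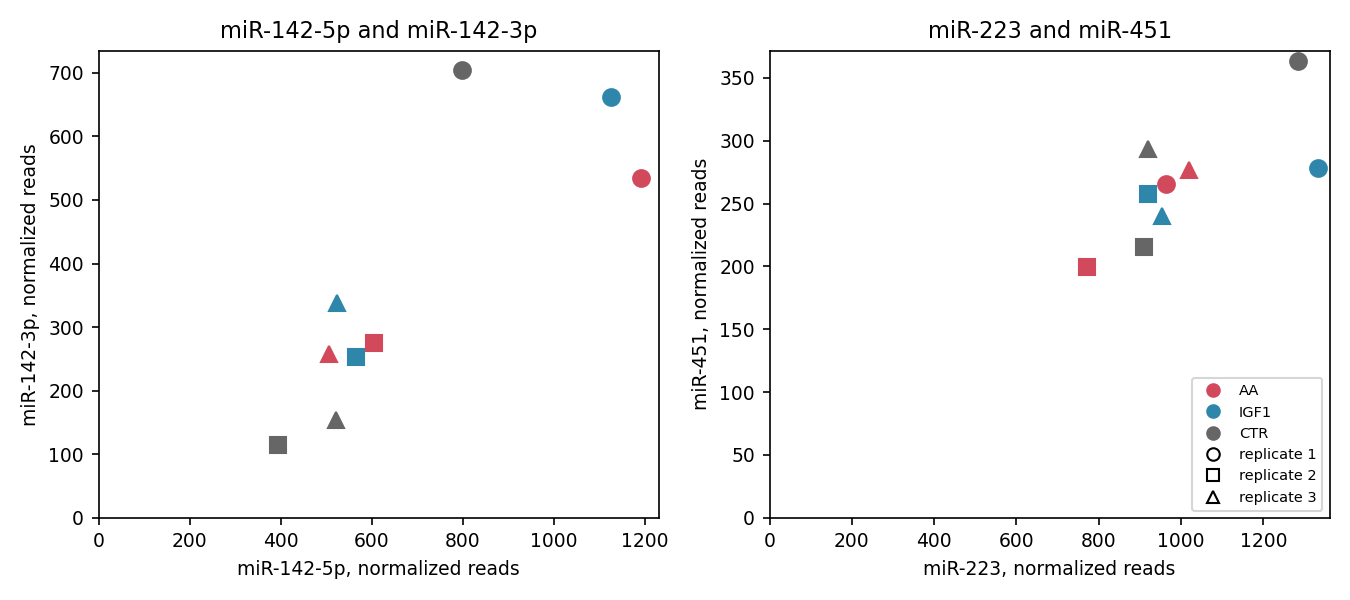
Normalized reads of miR-142-3p against miR-142-5p (left) and of miR-451 against miR-223 (right), each point a library of AA, IGF1 or CTR with the symbol giving its replicate number. The 3 circles on the left, with 798 to 1191 normalized reads of miR-142-5p, stand apart from the other 6 libraries, which lie between 394 and 604.

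The balance of the miR-142 arms was also uneven in the control libraries. miR-142-3p, listed under 2 names with equal values, was counted once, and whether its reads are split between the names was not tested. Counted so, the 5p arm was the higher in all 9 libraries. It was 2.23, 2.19 and 1.96 times the 3p arm in AA, 1.70, 2.23 and 1.55 times in IGF1 and 1.13, 3.42 and 3.39 times in CTR, so that the CTR libraries held both the lowest and the highest ratios. If the 5p reads are undivided, an even split of the 3p reads between the 2 names would turn the arm order wherever this ratio is under 2. Taken back to reads, both arms held values that were not whole, such as 1283.5 for the 5p arm and 754.5 for the 3p arm in IGF1 replicate 1. The 5p reads may thus be divided too, and the arm order then need not turn, which was not tested. The log2 ratio averaged 1.09 ± 0.10 in AA, 0.85 ± 0.27 in IGF1 and 1.23 ± 0.91 in CTR (SD, n = 3 each). The differences were -0.15 for AA against CTR (two-sided exact permutation p = 1), -0.38 for IGF1 against CTR (exact p = 0.4, adjusted 0.6) and 0.24 for AA against IGF1 (exact p = 0.3, adjusted 0.6), where 3 libraries against 3 cannot go below 0.1. Without CTR replicate 1 the difference from CTR was -0.67 in AA and -0.91 in IGF1, and without CTR replicate 2 or 3 that of AA was 0.12.

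The sequences whose pattern was most like that of a member were found among the other sequences with miRBase names that met the filter. For miR-142-3p they were miR-147 (r = 0.98), miR-19a (0.98) and a form of miR-152 (0.97), and for miR-142-5p the minor arm mir-152-p5 (0.98) and the 3p arms of miR-21b (0.95) and miR-21a-2 (0.95). miR-223, also among the candidates, had an r of 0.55 with miR-142-5p. Since the sequences named are those with the highest r, all others are lower by construction. For miR-223 they were miR-460-5p (0.86), miR-7132a-5p (0.86) and a form of miR-727-3p (0.85), and for miR-451 a form of miR-27b-5p (0.90), miR-7132a-3p (0.83) and miR-7132a-5p (0.81). miR-7132a-5p was thus among the nearest of both miR-223 and miR-451. These r are the highest of many over 9 libraries and are given as a description.

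Other blood and immune miRNAs were taken from a list of 7 numbers, of which miR-150 and miR-486 were not analysed here. The 5 others had 18 sequences, 15 of them tested, and none passed in any comparison between media. In AA against CTR the median log2 fold change of the 15 was 0.35, against 0.08 over all entries, and in IGF1 against CTR 0.17, against 0.05. These medians were not tested, and the 15 hold several forms of the same miRNA. By the most abundant sequence of each number, AA against CTR gave 0.56 for miR-147 and 0.37 for miR-146. It gave 0.0001 for miR-155, -0.11 for miR-731 and -0.16 for miR-462, the smallest limma adjusted p being 0.347. The values of each number are given for its most abundant sequence. miR-147, which is induced by inflammatory signals in mouse macrophages, had 828, 494 and 523 normalized reads in AA, 919, 394 and 595 in IGF1 and 837, 243 and 327 in CTR. Like miR-142 it was highest in the library numbered 1 of every group, with a log2 difference of 1.06 (SE 0.18, limma adjusted p = 0.00661). Its minor arm mir-147-p5, in a form with a base change, was the other sequence of the list that passed, with a log2 difference of 0.71 (SE 0.19, limma adjusted p = 0.0469). Over all 594 entries, 6.4% passed as higher in replicate 1, and 14.5% were highest there in every group. The list thus passed through the 2 arms of a single miRNA. The nearness of miR-147 to miR-142-3p in pattern comes from the same values and is not a separate observation. miR-155, which is raised in activated lymphocytes and macrophages, was lowest in the library numbered 1 of every group, in AA by a narrow margin. It had 4433, 4388 and 3608 normalized reads in replicate 1 of AA, IGF1 and CTR, against between 4437 and 5875 in the others. It did not pass (log2 difference -0.29, SE 0.14, limma adjusted p = 0.216). The interferon-induced teleost miRNAs miR-462 and miR-731 had log2 differences of -0.0026 and -0.19 (adjusted p = 0.992 and 0.407). miR-146, which damps inflammatory signalling in mammals, ranked 2 of 830 with a mean of 1407070 normalized reads, and its log2 difference was 0.02 (adjusted p = 0.951).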

How the data were processed

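The authors sequenced small RNA single-end, trimmed the reads with scripts of their own, kept unique sequences of 18 to 26 nt and assigned them by BLAST to miRBase precursors. They deposited normalized reads, a signal per entry and library, whose formula is not given in the sources used here. The deposited p-values of the authors' own test over the 3 groups were not used, and their group means equal the library averages.

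The value of 1 read was inferred per library from the step between low values (below 150). Whole reads made up 79.3% to 83.1% of them per library, within 0.02 reads, too few for count models. Whole reads and simple fractions of a read together made up 99.7% to 100%, and where the fractions come from was not tested. Of 862 entries, the 594 that reached 10 normalized reads in 3 or more libraries were tested as log2(normalized reads + 1), in a linear model over all libraries (limma 3.58.1, R 4.3.3; empirical Bayes, intensity trend), two-sided, with Benjamini-Hochberg adjustment over all entries and a threshold of 0.05. Exact permutation tests used scipy 1.17.1 (Python 3.11.15). The models were tested on simulated data with scatter drawn independently for each library, which does not cover shared deviations of same-numbered libraries.

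Same-numbered libraries deviated together between IGF1 and CTR (r = 0.40, 0.32 and 0.30), which by the rule set for it pairs them, but not throughout between AA and CTR (0.27, -0.11 and 0.07) or AA and IGF1 (0.32, 0.05 and 0.35). The main model has no block, also for IGF1 against CTR, where the rule calls for one. For the miR-142 arms its intervals are therefore to be read beside the values with the block. Members and lists were chosen with earlier results of these data known. All distinct member sequences were described, and the 3 most similar sequences of each were named by Pearson's r. Alternatives covered pseudocount, filter, scaling, model, weights, block and leaving out each library.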

Additional observations from a re-analysis of the deposited data

How the results depend on the processing

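The count of blood cell miRNAs past the threshold stayed at 0 in all 3 comparisons between media under each of the 21 alternatives, and that of sequences higher in replicate 1, a comparison chosen after seeing the data, stayed at 2 under each of 9. With a replicate block the counts between media were 0, with smallest adjusted p of 0.229 in AA against CTR, 0.238 in IGF1 against CTR and 0.728 in AA against IGF1. Library weights brought miR-142-3p nearer the threshold. Its log2 fold change was then 0.93 in AA against CTR (limma adjusted p = 0.1005) and 1.29 in IGF1 against CTR (adjusted p = 0.118). For the arm ratio, the differences of -0.15, -0.38 and 0.24 are the same with the block by construction, and the exact permutation p within replicate numbers was 1, 0.5 and 0.5, against 1, 0.4 and 0.3 without it. Over all entries the calls numbered 14, 0 and 5 in these comparisons, 31, 2 and 10 with the replicate block, 104, 5 and 20 with library weights, 20, 0 and 10 with a filter at 50 normalized reads, and in AA against IGF1 1 with no intensity trend. With 1 library left out they ran from 8 to 40, 0 to 2 and 1 to 13, the highest each without CTR replicate 1, and the lowest in AA against CTR without AA replicate 2. For replicate 1 they numbered 46 in either direction, 38 of them higher in replicate 1. They numbered 29 (23 higher) without the AA libraries, 38 (31 higher) without the IGF1 libraries and 16 (14 higher) without the CTR libraries. Signs of values far from the threshold turned. After quantile normalization miR-223 in IGF1 against CTR was at -0.0127 and miR-142-5p in AA against IGF1 at -0.0197, and miR-142-5p with library weights at -0.114. With 1 library left out, values in AA against CTR ran from 0.03 to 1.33 for miR-142-3p and from 0.02 to 0.65 for miR-142-5p. In IGF1 against CTR they ran from 0.22 to 1.52 for miR-142-3p, from -0.00707 to 0.613 for miR-142-5p, from -0.13 to 0.20 for miR-223 and from -0.339 to 0.0364 for miR-451. In AA against IGF1 they ran from -0.33 to 0.39 for miR-142-5p, from -0.53 to 0.20 for miR-142-3p and from -0.163 to 0.0719 for miR-451. The arm ratio ran from -0.67 to 0.12 in AA against CTR, from -0.91 to -0.12 in IGF1 against CTR and from 0.12 to 0.39 in AA against IGF1. Causes were not tested. The few reads of miR-144 limit any comparison of it.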
